A study of Mus musculus with 9 samples.

Results

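Interferon-stimulated genes are described here in mouse primary calvarial pre-osteoblasts that were made to express the hypoxia-inducible factors HIF-1α or HIF-2α. They were taken by gene symbol as a list of 41 genes, and all 41 were found among the 40213 symbols of the count files. All 41 also passed the filter on low counts, which left 14413 genes for testing. Ad-Hif1a cells received adenovirus carrying Hif1a, Ad-Hif2a cells received adenovirus carrying Hif2a (Epas1), and Ad-C cells received control adenovirus, with 3 libraries per group. In every group the cells were WT cells from the calvaria of 3-day-old ICR pups, infected on day 3 and kept at normoxia in osteogenic medium, with β-Gp at 5 mM and L-AA at 50 μg/ml, until total RNA was taken on day 6. Every group thus carries an adenovirus, uninfected cells were not analysed here, and what the control virus carries is not given in the sources used here. The labels number the libraries 1 to 3 without saying that they came from separate cultures. The paper states, for its experiments in general, that sample sizes count independent experiments or mice and that experiments were repeated independently. The p-values rest on the spread between libraries that remains after terms for group and replicate number, estimated over all 9 libraries together. Whether part of that spread is technical was not tested.

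Type I interferon binds a cell-surface receptor of the subunits IFNAR1 and IFNAR2, whose kinases JAK1 and TYK2 start a phosphorylation chain. It ends in the complex ISGF3, of which STAT2 and IRF9 are subunits and which binds the interferon-stimulated response element (ISRE) in the promoters of antiviral genes. Interferon gamma acts through JAK1 and JAK2 and the GAS element, and drives guanylate-binding proteins, immunity-related GTPases and the chemokines CXCL9 and CXCL10. Many of the same genes can also be switched on by IRF3 and IRF7 after a cell senses viral nucleic acid. In bone, type I interferon is known as a brake on osteoclast formation.

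The promoters of many of these genes carry the ISRE, and the 7 stretches below show it in genes of different roles. RefSeq promoter windows (build GRCm38.p6, 250 bases before to 50 after the start of the gene) matched 32 of the 41 genes. Dhx58, Oas2, Mx1, Mx2, Usp18, Zbp1, Iigp1, Rtp4 and Parp14 were not matched. The ISRE core (GAAA, any 2 bases, GAAA) stood on either strand in 20 of the 32 windows, 62.5%, against 3.99% of the windows of 27025 genes. Each stretch is 60 bases, read 5′ to 3′ on the strand of the gene, and ends before the start of the gene. Capitals mark the ISRE core, or its reverse complement where it lies on the other strand, and where a window held several cores, only the one nearest the start.
Isg15, chr4:156200850-156200909, minus strand: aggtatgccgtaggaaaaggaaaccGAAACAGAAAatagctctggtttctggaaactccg
Ifit1, chr19:34640779-34640838, plus strand: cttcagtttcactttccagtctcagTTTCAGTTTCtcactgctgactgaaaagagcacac
Oas1a, chr5:120907526-120907585, minus strand: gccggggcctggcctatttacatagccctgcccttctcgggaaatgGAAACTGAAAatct
Bst2, chr8:71537562-71537621, minus strand: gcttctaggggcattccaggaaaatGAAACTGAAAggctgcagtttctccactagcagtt
Gbp2, chr3:142620579-142620638, plus strand: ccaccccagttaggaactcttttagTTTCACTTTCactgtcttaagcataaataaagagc
Rsad2, chr12:26456538-26456597, minus strand: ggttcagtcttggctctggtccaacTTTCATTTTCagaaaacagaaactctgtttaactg
Cxcl10, chr5:92349068-92349127, minus strand: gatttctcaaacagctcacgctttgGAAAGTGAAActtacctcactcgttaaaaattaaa

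Between the motif and the start lay 4 bases in Oas1a, 49 in Gbp2, 56 in Isg15, 75 in Ifit1, 110 in Rsad2, 114 in Bst2 and 203 in Cxcl10. The GAS core (TTC, any 3 bases, GAA) stood in 10 of the 32 windows, 31.2%, against 9.55% of all windows. In Bst2 it overlapped a further ISRE core that is not in capitals, and not the one that is. The cores to which HIF dimers bind were searched too, on both strands. ACGTG stood in 2 of the 32 windows, 6.2% against 21.78% of all windows, and GCGTG in 11, 34.4% against 35.15%. Among the windows of the 11104 genes that were tested and matched, the shares were 28.67% for ACGTG and 54.08% for GCGTG, both above those of the interferon-stimulated genes, and 3.84% for the ISRE core and 8.23% for the GAS core. The 12 windows without an ISRE core were those of Ifit2, Ifi44, Oasl1, Oasl2, Irf1, Irf7, Irf9, Ifi35, Ifi47, Xaf1, Cmpk2 and Cxcl9. Matches are letters in a window and were not tested as binding sites. Gene positions in the build of the count files are not given, since the reference is of an earlier build.

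The library totals were 16239634 to 17696512 counts with Ad-Hif1a, 14372589 to 17517897 with Ad-Hif2a and 17444224 to 18623403 with Ad-C. Levels below are CPM, counts rescaled to a common library total with factors from the trimmed mean of M-values (TMM). The vectors were in place. Hif1a stood at 1240, 1930 and 2325 CPM in the Ad-Hif1a libraries, against 186 to 193 CPM in Ad-C. Epas1 stood at 1996, 2181 and 823 CPM in the Ad-Hif2a libraries, against 41.9 to 48.8 CPM in Ad-C. The gene of the vector was thus lowest in Ad-Hif1a replicate 1 and in Ad-Hif2a replicate 3. Epas1 also stood at 407 to 679 CPM in Ad-Hif1a, and Hif1a at 447 to 585 CPM in Ad-Hif2a. Mitochondrial transcripts, taken as a sign of RNA quality, made up 2.95, 3.69 and 5.55% of the counts in Ad-Hif1a and 5.77, 5.2 and 2.82% in Ad-Hif2a, against 5.92 to 6.37% in Ad-C. Every vector library was below every Ad-C library in this share, so RNA quality and an effect of the vectors on it cannot be told apart. Ad-Hif1a replicate 1 and Ad-Hif2a replicate 3, the 2 lowest in that share, were also the libraries in which short transcripts stood highest within their groups, as given below. Osteoblast markers (10 of 10 tested) summed to 60970 to 62880 CPM in Ad-Hif1a and 53120 to 62320 CPM in Ad-Hif2a, against 68030 to 73580 CPM in Ad-C. The sums were led by Col1a1, which was not called by the test described below. By that test 3 fell and 1 rose with Ad-Hif1a, and 4 fell and 1 rose with Ad-Hif2a. Sp7, Alpl and Bglap fell with both vectors, Runx2 fell with Ad-Hif2a, and Postn rose with both. Without Ad-C replicate 1, 0 of the 10 were called in either comparison.

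One library stood above the others over the list. In Ad-Hif2a replicate 1, all 41 interferon-stimulated genes were above their Ad-C mean and 34 had their highest level of the 9 libraries, against 10.5% of all genes with their highest level there. The mean log2 CPM of the 41 genes, less its mean in Ad-C, was 0.89 in Ad-Hif2a replicate 1, -0.25 in replicate 2 and 0.27 in replicate 3. In Ad-Hif1a it was -0.15, -0.07 and -0.18, and in the Ad-C libraries themselves 0.03, 0.08 and -0.11. Ad-Hif2a thus held both the highest and the lowest of the 9 library means. The ratio of the highest to the lowest library of a group had a median over the 41 genes of 1.38 in Ad-Hif1a and 2.25 in Ad-Hif2a, against 1.16 in Ad-C. Over all genes above 1 CPM these medians were 1.37, 1.6 and 1.15 in the same order. The list thus spread more than genes in general in Ad-Hif2a and about as much in Ad-Hif1a and Ad-C, a description without a test.

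**Figure D1:**
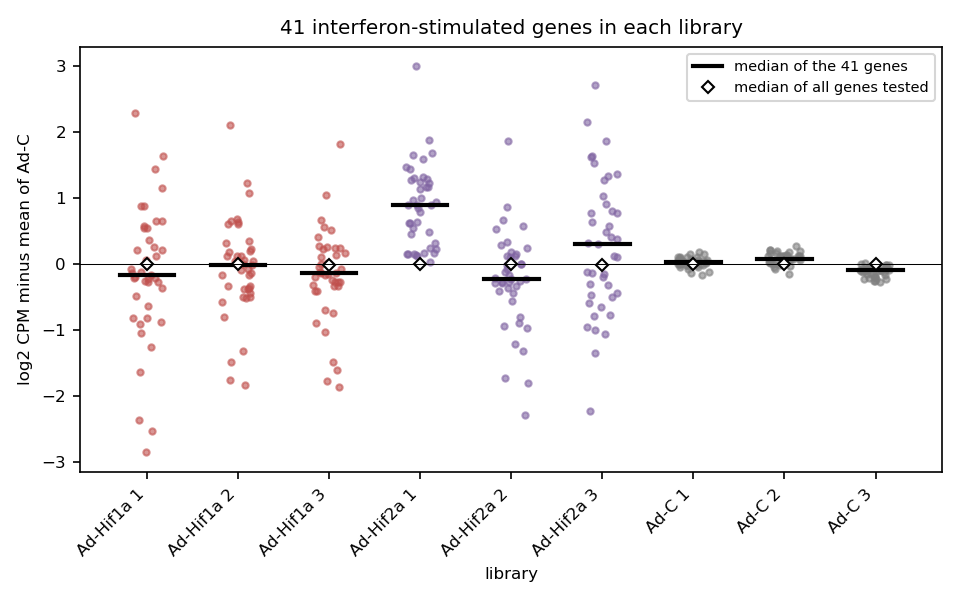
Level of each of the 41 interferon-stimulated genes in each library, as log2 CPM minus the mean of the 3 Ad-C libraries (y axis), by library (x axis), with a point per gene, a bar at their median and a diamond at the median of all genes tested. In Ad-Hif2a replicate 1 every point lies above 0 and the median is 0.89, while the diamonds lie near 0 in all 9 libraries.

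**Figure D2:**
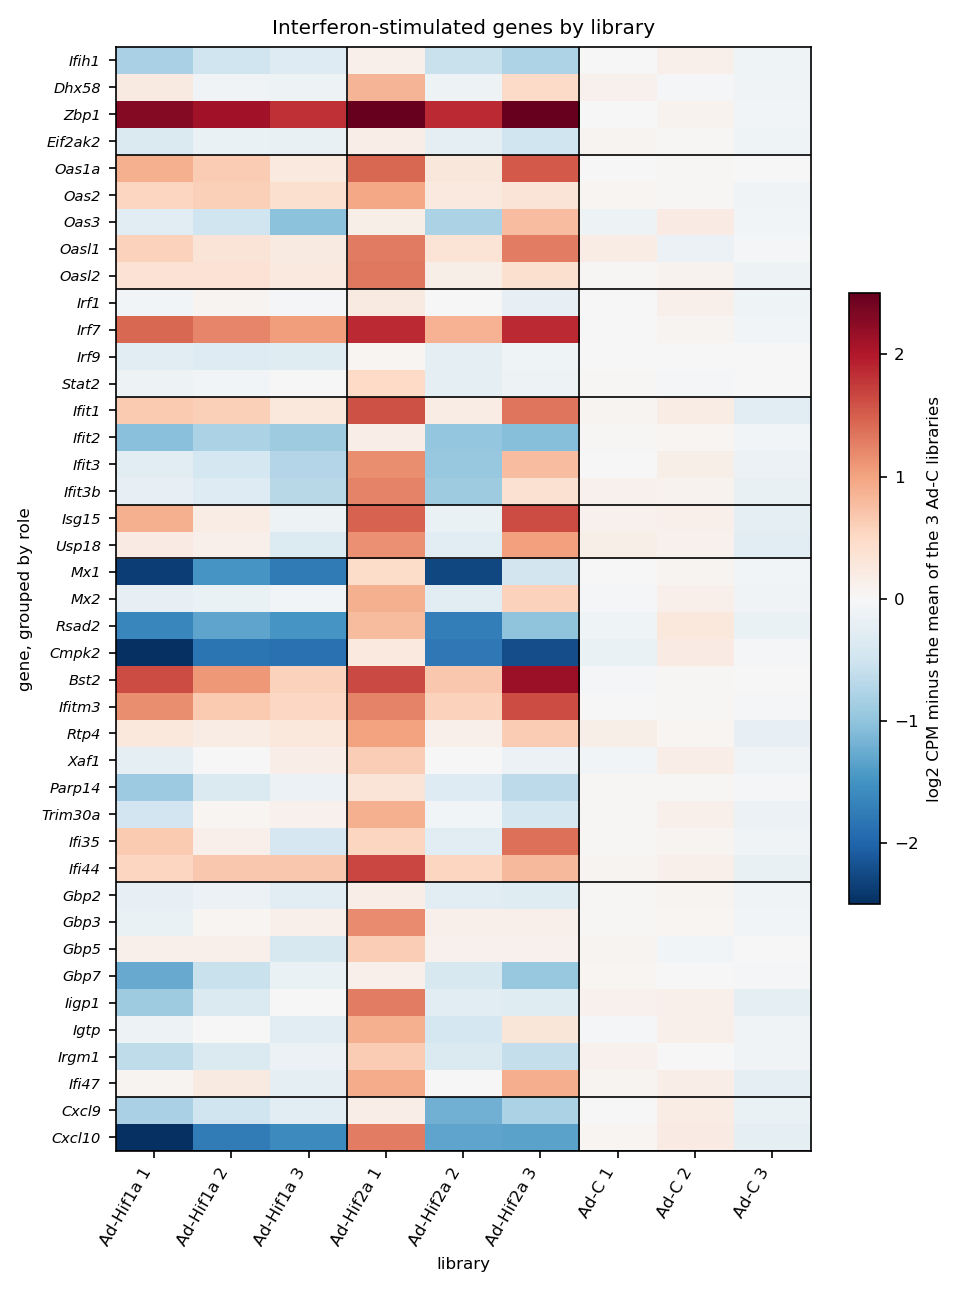
The same log2 differences from the Ad-C mean as colors, with a row per gene grouped by role (from the top: sensors, 2-5A synthetases, transcription factors, the IFIT family, ISG15 and its protease, other effectors, GTPases, chemokines) and a column per library, red for higher and blue for lower than Ad-C, with colors saturating at 2.5. Zbp1 and Irf7 are red in all 6 vector libraries, and Cmpk2, Rsad2, Mx1 and Cxcl10 are blue in the Ad-Hif1a libraries and in Ad-Hif2a replicate 2.

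With Ad-Hif1a, 2 of the 41 interferon-stimulated genes rose and 0 fell. The 2 that rose were Zbp1 and Irf7, a sensor and a transcription factor of the antiviral response. Among all genes tested, 6.04% rose and 5.22% fell (11.3% in either direction), so the share of risen interferon-stimulated genes, 4.88%, was near the background. The median log2 fold change of the 41 was -0.06, against 0.01 for all genes, with 17 positive and 24 negative, and a range of -2.12 to 2.07. Calls were made by edgeR's quasi-likelihood test with a threshold of 0.05 on p-values adjusted after Benjamini and Hochberg across every gene tested, and log2 fold changes are given ± SE. DESeq2 called 4 higher and 5 lower (22% of them, against 14.1% of all genes). The 5 that DESeq2 called lower were Cmpk2, Cxcl10, Ifit2, Mx1 and Rsad2. With the 6 libraries of Ad-Hif1a and Ad-C alone, a fit that holds no Ad-Hif2a library, 9 rose and 11 fell, which is 48.8% of them called, against 33.5% of all genes by this fit. The calls also moved with single libraries. Irf7 was lost, with adjusted p of 0.0529 to 0.154, when any Ad-C library or Ad-Hif1a replicate 1 or 2 was left out, and then only Zbp1 passed. These fits called 2.99 to 5.03% of all genes and 2.44% of the interferon-stimulated genes. Bst2 and Ifitm3 were added without Ad-Hif1a replicate 3, a fall of Mx1 without Ad-Hif2a replicate 2, falls of Cmpk2, Cxcl10, Ifit2 and Rsad2 without Ad-Hif2a replicate 1, and 5 rises with 4 falls without Ad-Hif2a replicate 3. The fit without Ad-Hif2a replicate 3 called 36.4% of all genes, so that the 26.8% of interferon-stimulated genes it called lay below the background. The fit without Ad-Hif2a replicate 1 called 14.6% of them, against 8.7% of all genes. Without Ad-Hif1a replicate 3 these shares were 9.76% and 14.8%, and without Ad-Hif2a replicate 2 they were 7.32% and 9.27%. In bulk RNA, a change in the share of cells that make a transcript and a change in its amount per cell cannot be told apart.

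With Ad-Hif2a, 6 of the 41 rose and 0 fell. They were Zbp1, Irf7, Bst2, Ifitm3, Ifi44 and Oasl1, a sensor, a transcription factor, 3 genes of the effector group and a member of the 2-5A synthetase family. Of all genes tested, 7.87% rose and 7.72% fell (15.6% in either direction), and 14.6% of the interferon-stimulated genes rose. Their median log2 fold change was 0.32, against 0.01 for all genes, with 28 positive and 13 negative, and a range of -1.04 to 2.56. DESeq2 called 10 higher and 0 lower (24.4% of them, against 20.6% of all genes). This comparison uses the same Ad-C libraries as the one with Ad-Hif1a. The calls also moved with single libraries. Only Zbp1 rose without Ad-C replicate 1 or without Ad-C replicate 3, and only Zbp1 and Irf7 without Ad-C replicate 2 or Ad-Hif1a replicate 2. Calls fell among all genes too, to 4.67% and 5.23% without Ad-C replicate 1 or 3 (2.44% of the interferon-stimulated genes). Without Ad-C replicate 2 or Ad-Hif1a replicate 2 they fell to 6.89% and 9.41% (4.88% of the interferon-stimulated genes). Without Ad-Hif2a replicate 1, Zbp1 and Irf7 rose while Cmpk2, Cxcl10, Ifit2 and Rsad2 fell, and the median was 0.08 (14.6% of them called, against 7.22% of all genes). Without Ad-Hif2a replicate 2, 14 rose and the median was 0.63 (34.1% called, against 13.1% of all genes). Oasl1 was also lost without Ad-Hif1a replicate 1 (13.1% of all genes called) and, with Ifi44, in the fit of the 6 libraries compared (12.1%).

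**Figure D3:**
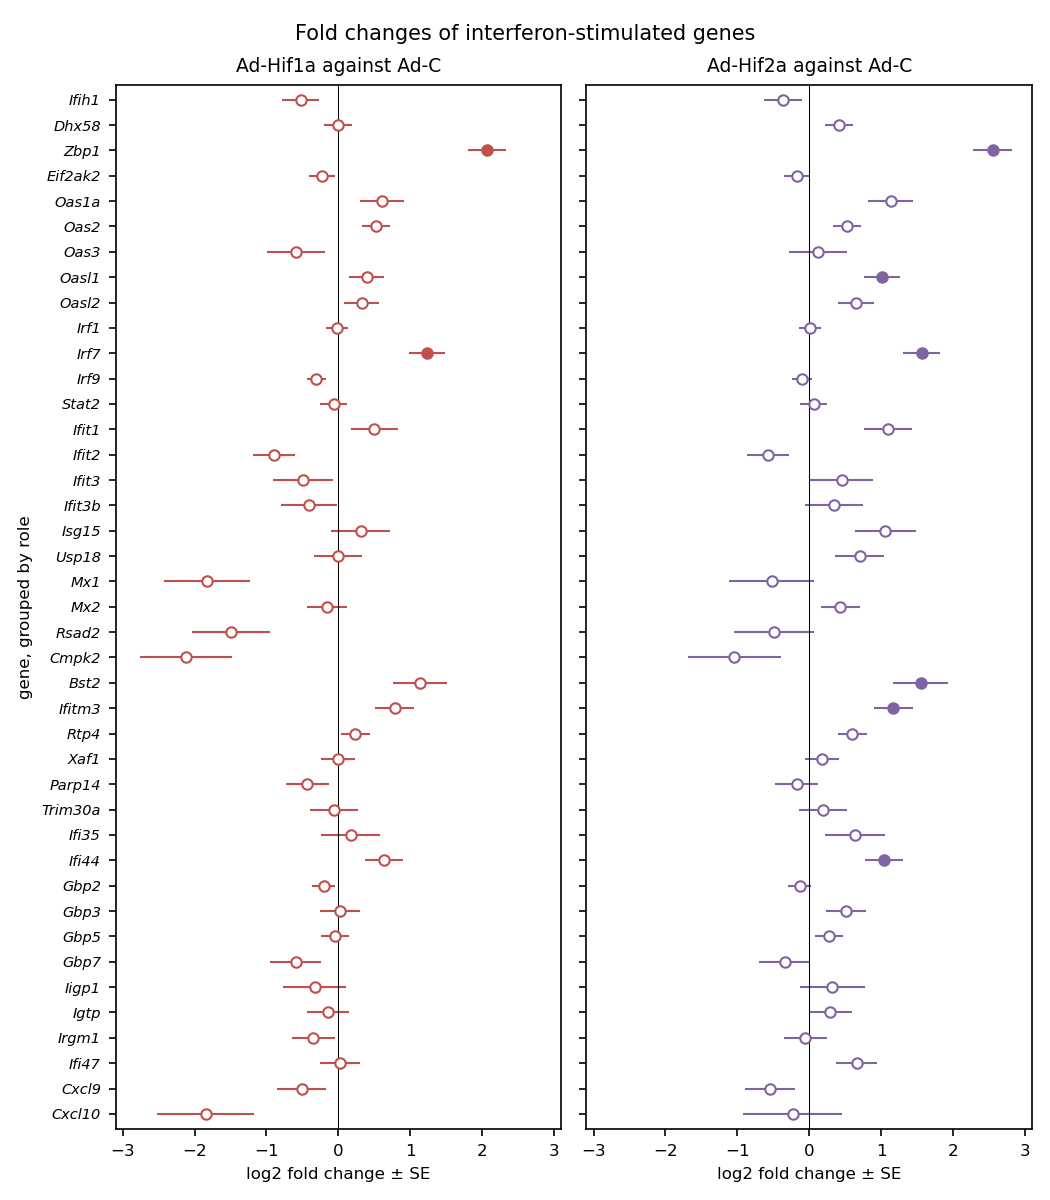
Log2 fold changes (x axis, points) with standard errors (bars) of the 41 interferon-stimulated genes (y axis, grouped by role as in the map of colors), with Ad-Hif1a against Ad-C on the left and Ad-Hif2a against Ad-C on the right, filled where the edgeR adjusted p was under 0.05. On the left Zbp1 and Irf7 are filled, on the right Zbp1, Irf7, Bst2, Ifitm3, Ifi44 and Oasl1, and no gene is filled below 0.

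By the plain order of levels, 11 interferon-stimulated genes had all Ad-Hif1a libraries above all Ad-C libraries (24.5% of all genes) and 16 had them all below (25.9%). With Ad-Hif2a, 11 had all libraries above Ad-C (24.0% of all genes) and 0 had them all below (25.5%). Across both vectors, 9 genes were above every Ad-C library in all 6 vector libraries: Bst2, Ifi44, Ifitm3, Irf7, Oas1a, Oas2, Oasl1, Oasl2 and Zbp1 (18.7% of all genes did so). No interferon-stimulated gene was below every Ad-C library in all 6, as 20.6% of all genes were. Another 13 genes were below every Ad-C library in the 3 Ad-Hif1a libraries and in Ad-Hif2a replicates 2 and 3, a grouping made after the values were seen: Cmpk2, Cxcl10, Cxcl9, Eif2ak2, Gbp2, Gbp7, Ifih1, Ifit2, Irf9, Irgm1, Mx1, Parp14 and Rsad2. In Ad-Hif2a replicate 1, all 13 lay above the lowest Ad-C library and 12, all but Cxcl9, above every Ad-C library. That all 13 did so follows from the absence of genes below Ad-C in all 6. Of all genes tested, 21.9% had the first pattern, and 1.27% and 0.548% had it together with those 2 orders in Ad-Hif2a replicate 1. The pattern was picked by leaving out that library, so these shares are a description and lend no support to a difference of replicate 1.

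Among the sensors of viral nucleic acid was the gene with the highest log2 fold change of the 41 in both comparisons. Zbp1, which recognizes Z-form nucleic acid and can start inflammatory cell death, had 93.7, 82.3 and 67.8 CPM with Ad-Hif1a and 153, 69.7 and 126 CPM with Ad-Hif2a, against 19.1, 20.2 and 18.1 CPM with Ad-C. Every vector library exceeded every Ad-C library, and within Ad-Hif2a replicates 1 and 3 lay above replicate 2. Its log2 fold change was 2.07 ± 0.26 (edgeR adjusted p of 0.00385) with Ad-Hif1a and 2.56 ± 0.27 (edgeR adjusted p of 0.00141) with Ad-Hif2a, and it passed under all 18 alternatives of the fit, with the highest adjusted p at 0.04 and 0.0193. Eif2ak2, the kinase PKR, which halts translation when it binds double-stranded RNA, was measured at 149, 169.7 and 166 CPM in Ad-Hif1a and at 213, 162 and 136 CPM in Ad-Hif2a, against 199, 195 and 178 CPM in Ad-C. Only Ad-Hif2a replicate 1 reached above the Ad-C libraries, and neither comparison passed. Ifih1, the RNA sensor MDA5, had log2 fold changes of -0.53 with Ad-Hif1a and -0.37 with Ad-Hif2a, and Dhx58, its regulator LGP2, of 0.00 and 0.42, with adjusted p of 0.177 to 0.999 for these 4 values.

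The 2-5A synthetase family makes a short oligoadenylate messenger in response to double-stranded RNA, though mouse OASL1 lacks that activity. Oas1a stood at 37.0, 31.2 and 23.8 CPM in the Ad-Hif1a libraries and 54.3, 24.5 and 58.3 CPM in the Ad-Hif2a libraries, against 19.8, 20.4 and 19.9 CPM in the Ad-C libraries. All vector libraries were above Ad-C, by a small margin in Ad-Hif1a replicate 3 and Ad-Hif2a replicate 2. Its log2 fold change with Ad-Hif2a, 1.14 ± 0.31 (edgeR adjusted p of 0.0505), missed the threshold and passed it under 7 of the 18 alternatives. Oasl1, known in mice as a restraint on translation of Irf7, had 5.55, 4.65 and 4.35 CPM with Ad-Hif1a and 9.32, 4.69 and 9.10 CPM with Ad-Hif2a, against 4.20, 3.31 and 3.64 CPM with Ad-C. Its rise with Ad-Hif2a had a log2 fold change of 1.02 ± 0.25 (edgeR adjusted p of 0.0338), with Ad-Hif2a replicate 2 close to the Ad-Hif1a libraries. Oasl2 was measured at 151, 149.8 and 139 CPM in Ad-Hif1a and at 292, 129.8 and 155 CPM in Ad-Hif2a, against 119.9, 125 and 107 CPM in Ad-C. All 6 vector libraries were above Ad-C, and Ad-Hif2a replicate 1 was well above the other 5, which lay close together. Oas2 was higher in all 6 vector libraries than in Ad-C, with log2 fold changes of 0.52 and 0.53, and Oas3 had -0.59 with Ad-Hif1a and 0.12 with Ad-Hif2a, and none of these 4 passed.

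Among the transcription factors, Irf7, the factor that amplifies interferon production, stood at 143, 123 and 109 CPM in the Ad-Hif1a libraries and 193, 96.4 and 192 CPM in the Ad-Hif2a libraries, against 52.8, 55.3 and 49.9 CPM in the Ad-C libraries. The vector libraries did not overlap with Ad-C, and Ad-Hif2a replicate 2 was the lowest of them. The log2 fold change was 1.23 ± 0.25 (edgeR adjusted p of 0.0233) with Ad-Hif1a and 1.56 ± 0.26 (edgeR adjusted p of 0.00822) with Ad-Hif2a, and with Ad-Hif2a it missed the threshold only without Ad-C replicate 1 or 3, at adjusted p up to 0.0698. Stat2, the subunit that gives ISGF3 its activating domain, had 155, 159.9 and 168 CPM with Ad-Hif1a and 236, 145 and 154 CPM with Ad-Hif2a, against 171, 163 and 170.5 CPM with Ad-C. Apart from Ad-Hif2a replicate 1, the vector libraries lay within or below the range of Ad-C. Irf9, the DNA-binding subunit of ISGF3, had log2 fold changes of -0.31 with Ad-Hif1a and -0.10 with Ad-Hif2a, and Irf1, a factor induced by interferon gamma, of -0.01 and 0.01, without passing in either.

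IFIT proteins bind foreign RNA and block its translation. Ifit1 was measured at 384, 369 and 292 CPM in Ad-Hif1a and at 732, 275 and 611 CPM in Ad-Hif2a, against 256, 278 and 202 CPM in Ad-C. Ad-Hif2a replicates 1 and 3 were far above the rest, and replicate 2 lay within the range of Ad-C. Ifit3 stood at 113, 100.1 and 81.5 CPM in the Ad-Hif1a libraries and 306, 70.6 and 233 CPM in the Ad-Hif2a libraries, against 137, 149 and 122 CPM in the Ad-C libraries. Its Ad-Hif1a libraries were below all Ad-C libraries, and Ad-Hif2a had both the highest and the lowest library of the 9. Ifit3b, a close copy of Ifit3 with which reads may be shared, had 80.6, 73.8 and 57.2 CPM with Ad-Hif1a and 220.2, 50.1 and 121 CPM with Ad-Hif2a, against 100.2, 98.1 and 80.9 CPM with Ad-C. Ifit2 was measured at 30.1, 35.8 and 33.5 CPM in Ad-Hif1a and at 69.5, 31.7 and 29.7 CPM in Ad-Hif2a, against 63.4, 63.9 and 59.2 CPM in Ad-C. Here only Ad-Hif2a replicate 1 was above Ad-C, and the other 5 vector libraries stood below every Ad-C library. No IFIT gene passed in edgeR: with Ad-Hif2a the log2 fold change of Ifit1 was 1.09 ± 0.33 (edgeR adjusted p of 0.0687), and with Ad-Hif1a that of Ifit2 was -0.89 ± 0.29 (edgeR adjusted p of 0.103).

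ISG15 is a ubiquitin-like modifier, and USP18 is the protease that removes it and also damps the interferon receptor. Isg15 stood at 280.2, 174 and 138 CPM in the Ad-Hif1a libraries and 422, 136 and 469.7 CPM in the Ad-Hif2a libraries, against 164, 165 and 129.9 CPM in the Ad-C libraries. Ad-Hif2a replicate 2 was at the level of Ad-C and under 0.5 times both other Ad-Hif2a libraries. Usp18 had 54.3, 50.8 and 37.0 CPM with Ad-Hif1a and 103, 38.8 and 95.8 CPM with Ad-Hif2a, against 52.0, 50.6 and 39.0 CPM with Ad-C. In both genes replicate 2 was the lowest Ad-Hif2a library, and neither gene passed: the log2 fold change with Ad-Hif2a was 1.06 ± 0.42 (edgeR adjusted p of 0.131) for Isg15 and 0.70 ± 0.34 (edgeR adjusted p of 0.189) for Usp18.

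Some effectors were higher than Ad-C in all 6 vector libraries. Others were lower in the Ad-Hif1a libraries and in Ad-Hif2a replicates 2 and 3, without passing in the fit of all 9 libraries. Ifitm3, which blocks the entry of viruses through endosomes, was measured at 1033, 728 and 663 CPM in Ad-Hif1a and at 1089, 689 and 1436 CPM in Ad-Hif2a, against 464, 472 and 455 CPM in Ad-C. Bst2, tetherin, which holds budding virus at the cell surface, stood at 262, 178 and 125 CPM in the Ad-Hif1a libraries and 264, 135 and 374 CPM in the Ad-Hif2a libraries, against 83.0, 86.6 and 83.4 CPM in the Ad-C libraries. Both were above Ad-C in all vector libraries, highest in Ad-Hif2a replicate 3, and within Ad-Hif1a highest in replicate 1. The log2 fold change with Ad-Hif2a was 1.17 ± 0.27 (edgeR adjusted p of 0.0285) for Ifitm3 and 1.55 ± 0.38 (edgeR adjusted p of 0.0353) for Bst2, and with Ad-Hif1a 0.78 ± 0.27 (edgeR adjusted p of 0.115) and 1.14 ± 0.37 (edgeR adjusted p of 0.106). Ifi44, an interferon-induced protein of unsettled function, had 151, 166 and 165 CPM with Ad-Hif1a and 332, 150.3 and 182 CPM with Ad-Hif2a, against 108, 114 and 90.8 CPM with Ad-C. With Ad-Hif2a its log2 fold change was 1.04 ± 0.27 (edgeR adjusted p of 0.0409), and Ad-Hif2a replicate 1 was the highest library. Per kb of the longest annotated transcript, Ifitm3, Isg15 and Bst2 were the most abundant of the 41 in Ad-C, at 684, 202 and 106 CPM per kb, and Oasl1 the least, at 1.7 CPM per kb.

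**Figure D4:**
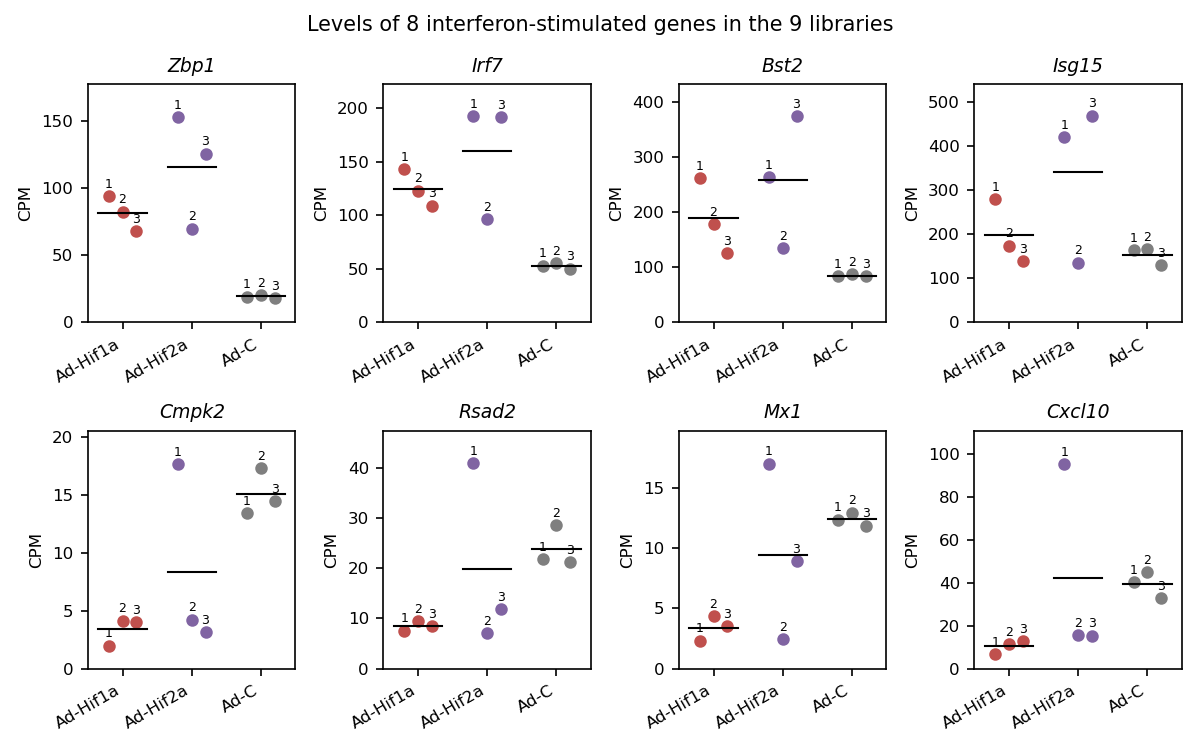
Level in CPM (y axis, from 0) of 8 interferon-stimulated genes in Ad-Hif1a, Ad-Hif2a and Ad-C (x axis), with a point per library marked by its replicate number and a line at the group mean. In the upper row Ad-Hif2a replicate 2 is the lowest of its group, and in the lower row Ad-Hif2a replicate 1 is above every Ad-C library while the Ad-Hif1a libraries are below every one.

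Cmpk2, Rsad2 and Mx1, named after their values were seen, ran the other way. Cmpk2, a mitochondrial nucleotide kinase encoded beside Rsad2, was measured at 1.98, 4.13 and 4.04 CPM in Ad-Hif1a and at 17.7, 4.23 and 3.13 CPM in Ad-Hif2a, against 13.4, 17.3 and 14.4 CPM in Ad-C. Rsad2, viperin, which makes a chain-terminating nucleotide that stops viral polymerases, stood at 7.59, 9.48 and 8.45 CPM in the Ad-Hif1a libraries and 40.9, 7.09 and 11.8 CPM in the Ad-Hif2a libraries, against 21.9, 28.6 and 21.2 CPM in the Ad-C libraries. Mx1, a dynamin-like GTPase that traps viral nucleoprotein, had 2.32, 4.36 and 3.54 CPM with Ad-Hif1a and 17.0, 2.46 and 8.96 CPM with Ad-Hif2a, against 12.4, 12.9 and 11.9 CPM with Ad-C. In all 3 genes every Ad-Hif1a library was below every Ad-C library, and Ad-Hif2a replicate 1 was above every Ad-C library. The log2 fold changes with Ad-Hif1a were -2.12 ± 0.64 (edgeR adjusted p of 0.084) for Cmpk2, -1.49 ± 0.54 (edgeR adjusted p of 0.136) for Rsad2 and -1.83 ± 0.60 (edgeR adjusted p of 0.105) for Mx1, so none passed. Over the alternatives the adjusted p of Cmpk2 with Ad-Hif1a ran from 0.000106 to 0.326. With Ad-Hif2a its log2 fold change was -1.04 ± 0.64 (edgeR adjusted p of 0.279) with all libraries and -2.23 (adjusted p = 0.0124) without replicate 1. The other effectors, Mx2, Rtp4, Xaf1, Parp14, Trim30a and Ifi35, had log2 fold changes between -0.43 and 0.24 with Ad-Hif1a and between -0.18 and 0.63 with Ad-Hif2a, and 0 of these 6 passed in edgeR.

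Guanylate-binding proteins and immunity-related GTPases attack the vacuoles of intracellular microbes, and 0 of 8 passed in either comparison. Gbp2 was measured at 119, 125 and 114 CPM in Ad-Hif1a and at 154, 114 and 111 CPM in Ad-Hif2a, against 141, 144 and 129 CPM in Ad-C. Irgm1, the regulator of the other GTPases of its family, stood at 74.4, 89.8 and 105 CPM in the Ad-Hif1a libraries and 180.3, 90.5 and 76.9 CPM in the Ad-Hif2a libraries, against 124, 115 and 109 CPM in the Ad-C libraries. For both genes the 5 vector libraries other than Ad-Hif2a replicate 1 lay below all Ad-C libraries, and that library lay above them. Gbp3 had 43.6, 50.7 and 53.9 CPM with Ad-Hif1a and 111, 53.4 and 53.5 CPM with Ad-Hif2a, against 49.8, 50.8 and 46.6 CPM with Ad-C. Iigp1 was measured at 21.2, 30.4 and 39.8 CPM in Ad-Hif1a and at 94.8, 32.3 and 31.7 CPM in Ad-Hif2a, against 42.0, 42.8 and 33.6 CPM in Ad-C. Each was over 2 times as high in Ad-Hif2a replicate 1 as in both other libraries of the group. Gbp5, Gbp7, Igtp and Ifi47 had log2 fold changes between -0.59 and 0.02 with Ad-Hif1a and between -0.34 and 0.66 with Ad-Hif2a. Genes of this family are similar in sequence, and reads may be shared between them.

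CXCL9 and CXCL10 attract T cells through the receptor CXCR3. Cxcl10 stood at 6.68, 11.5 and 12.7 CPM in the Ad-Hif1a libraries and 95.1, 15.6 and 15.3 CPM in the Ad-Hif2a libraries, against 40.1, 44.9 and 32.7 CPM in the Ad-C libraries. The Ad-Hif1a libraries were all below the other 2 groups, and Ad-Hif2a replicate 1 was over 2 times every other library. Its log2 fold change was -1.84 ± 0.67 (edgeR adjusted p of 0.138) with Ad-Hif1a and -0.23 ± 0.69 (edgeR adjusted p of 0.825) with Ad-Hif2a. Cxcl9 had 17.9, 22.2 and 26.0 CPM with Ad-Hif1a and 35.5, 13.6 and 18.2 CPM with Ad-Hif2a, against 31.1, 35.6 and 28.0 CPM with Ad-C. Ad-Hif2a replicate 1 lay within the range of Ad-C for this gene, and the other vector libraries lay below it.

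Single libraries were compared within their own group by a fixed ratio. In Ad-Hif2a replicate 1, 6 of the 41 interferon-stimulated genes were over 2 times both other Ad-Hif2a libraries: Cmpk2, Cxcl10, Gbp3, Ifit2, Iigp1 and Rsad2. Of all 13220 genes over 1 CPM, 66 were, 0.499%, and 12 of these 66 were among the 66 measured genes of a further list of interferon-induced genes (Gbp4, Gbp11, Irgm2, Tgtp2, Ifi203, Ifi209, Mndal, Slfn1, Slfn5, Trim34a, Phf11b and Phf11d). None of the 12 genes of MHC class I presentation was. In Ad-Hif2a replicate 2, 7 genes were under 0.5 times both other libraries: Ifit1, Ifit3, Ifit3b, Isg15, Mx1, Oas1a and Usp18, against 0.893% of all genes. For no interferon-stimulated gene was replicate 2 the highest Ad-Hif2a library, while 35 were highest in replicate 1 and 6 in replicate 3. Of all genes over 1 CPM, 21.9% were highest in replicate 1, 37% in replicate 2 and 41.1% in replicate 3. In replicate 3, 6.81% of all genes were over 2 times and 6.51% under 0.5 times both other libraries, and 0 of the 41 were. In Ad-Hif1a, Cmpk2 in replicate 1 was the only gene past this ratio.

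Transcript length moved with some of these differences. The 41 genes had 11 with a longest transcript under 2 kb, 24 of 2 to 4 kb and 6 of 4 kb or more, by GENCODE M21. Against the mean of the other libraries of its group, Ad-Hif2a replicate 3 had median log2 differences of 0.67, -0.28 and -0.51 in these classes, and the other genes of the same lengths had 0.53, -0.02 and -0.41. Ad-Hif1a replicate 1 had 0.33, -0.09 and -0.29, and other genes 0.34, 0.04 and -0.25. In both libraries the medians thus fell with transcript length, in interferon-stimulated genes as in other genes. The size was not always alike: in Ad-Hif2a replicate 3 the interferon-stimulated genes of 2 to 4 kb lay lower than others. Against Ad-C, that library had medians of 1.37, -0.00 and -0.57 in the 3 classes, and other genes 0.75, 0.00 and -0.60. Its interferon-stimulated genes under 2 kb thus stood above other genes of that length by this measure. Ad-Hif2a replicate 1 had 0.62, 0.98 and 0.73, and other genes -0.11, 0.02 and 0.06, so that it was higher in all length classes. Against Ad-C, other genes under 2 kb had medians of 0.47, 0.21 and 0.04 in Ad-Hif1a and 0.31, 0.09 and 0.75 in Ad-Hif2a, and Zbp1, Bst2, Ifitm3, Isg15 and Oas1a are of that class. The part of transcript length and of the low mitochondrial share in the fold changes was not tested. When both of these libraries were left out, a setting chosen after the data were seen, 6 genes rose with Ad-Hif1a and 9 with Ad-Hif2a, and all calls made with the 9 libraries remained. These were 14.6% and 22% of the interferon-stimulated genes, below the 27.6% and 28.7% of all genes that this fit called.

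**Figure D5:**
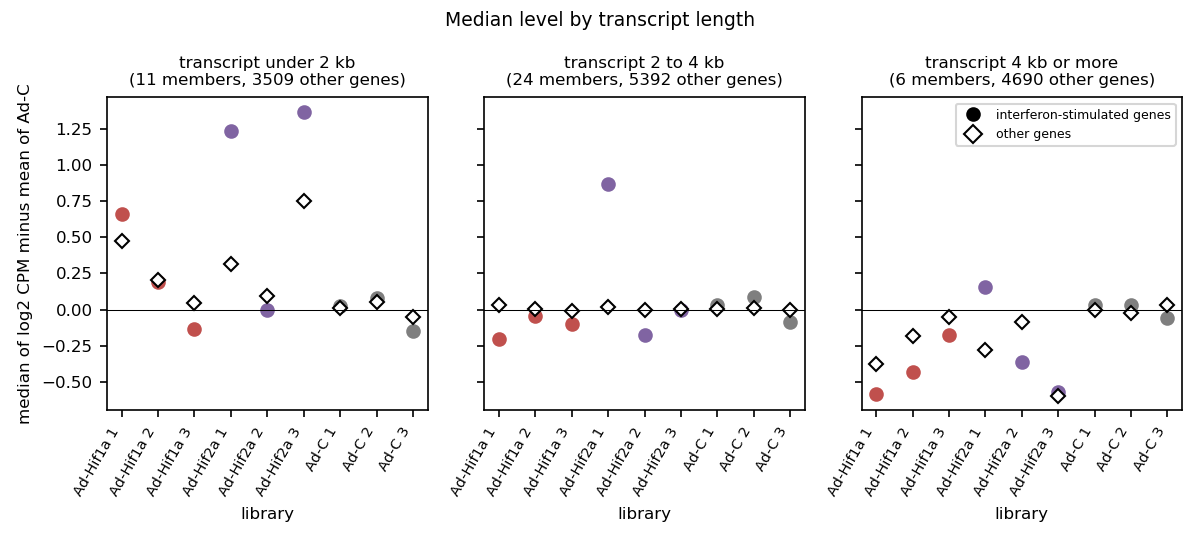
Median log2 CPM minus the Ad-C mean (y axis) in each library (x axis) of the interferon-stimulated genes (filled points) and of the other genes of like transcript length (open diamonds), for longest transcripts under 2 kb, of 2 to 4 kb and of 4 kb or more. In Ad-Hif2a replicate 1 the filled point is above the diamond in all 3 classes, and in Ad-Hif2a replicate 3 both fall with length.

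Ad-Hif2a and Ad-Hif1a were then compared with each other, to ask whether the 2 factors act alike on these genes. By edgeR, 0 of the 41 differed at an adjusted p under 0.05, and so did 0 of all 14413 genes (a background of 0%). Hif1a and Epas1, the genes that the vectors carry, were not called either. Their log2 fold changes were -1.75 ± 0.25 (edgeR adjusted p of 0.823) and 1.64 ± 0.40. Since the test missed these differences, the absence of calls says little about the 41 genes. Oasl1 had the lowest unadjusted p of the 41 in edgeR, 0.0374, with a log2 fold change of 0.62 (SE 0.25). DESeq2 called 0 of the 41, and 0.323% of all genes. The log2 fold change was positive for 40 of the 41, all but Cxcl9, with a median of 0.41 against 0 for all genes. Without Ad-Hif2a replicate 1 this median was 0.14, and without replicate 2 it was 0.66. Cxcl10 and Irf9 had all Ad-Hif2a libraries above all Ad-Hif1a libraries (3.07% of all genes), and no gene had them all below (3.21%). For Cxcl10 the log2 fold change was 1.62 (SE 0.72) and for Mx1 1.31 (SE 0.63), and neither passed, which does not show that the factors act alike.

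The interferons themselves were at or near 0. Of 15 interferon genes listed, none passed the filter and 9 had no count in any library. Ifnb1, which encodes interferon beta, had 6, 0 and 5 counts in the Ad-Hif2a libraries and 0, 1 and 0 in the Ad-Hif1a libraries, against 0, 1 and 0 in the Ad-C libraries. A count of 0 allows up to 3 counts, or 0.161 to 0.209 CPM at the depth of these libraries, and covers counting error only. Ifnz, another type I interferon gene, had 0, 0 and 5 counts in the Ad-Hif2a libraries and 2, 0 and 1 in the Ad-Hif1a libraries, against 4, 0 and 0 in the Ad-C libraries. The other listed genes had at most 2 counts in all.

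The receptors and the signaling chain changed in few genes. The counts of these and the following lists stand beside the shares of all genes given above, 6.04% risen and 5.22% fallen with Ad-Hif1a and 7.87% and 7.72% with Ad-Hif2a. Of 6 receptor genes, Ifnar2 rose with both vectors. Ifnar2 was measured at 96.7, 94.8 and 89.7 CPM in Ad-Hif1a and at 122, 87.1 and 128 CPM in Ad-Hif2a, against 56.2, 60.7 and 56.1 CPM in Ad-C. The log2 fold changes were 0.70 ± 0.18 (edgeR adjusted p of 0.0448) and 0.95 ± 0.18 (edgeR adjusted p of 0.0124), lost with Ad-Hif1a under 8 of 18 alternatives and with Ad-Hif2a without Ad-C replicate 1 or 3 or Ad-Hif2a replicate 1. Of 5 JAK and STAT genes, Jak2 rose with both vectors, at 1.10 ± 0.24 (edgeR adjusted p of 0.0275) and 1.42 ± 0.24 (edgeR adjusted p of 0.00879), and Tyk2 fell with Ad-Hif2a, at -0.63 ± 0.16 (edgeR adjusted p of 0.0381). Leaving out any 1 of the Ad-C libraries ended these calls. Other settings ended some of them too: in all, Tyk2 with Ad-Hif2a was lost under 9 of 18 alternatives and Jak2 under 6 with Ad-Hif1a and 3 with Ad-Hif2a. Of 8 negative regulators, Socs3, which inhibits JAK kinases, rose by 2.00 ± 0.18 (edgeR adjusted p of 0.000957) with Ad-Hif1a and 2.06 ± 0.19 (edgeR adjusted p of 0.000682) with Ad-Hif2a as log2 fold changes, under all alternatives. The phosphatase gene Ptpn2 rose too, at 0.72 ± 0.16 (edgeR adjusted p of 0.0327) and 0.84 ± 0.16 (edgeR adjusted p of 0.0153), but not when any Ad-C library was left out. In all it was lost under 7 of 18 alternatives with Ad-Hif1a and under 4 with Ad-Hif2a.

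Of 16 genes that sense nucleic acid or relay that signal to interferon genes, 1 rose and 2 fell with each vector, the risen share being about that of all genes. Ikbke, an interferon-regulatory kinase, rose by 1.12 ± 0.17 (edgeR adjusted p of 0.00724) with Ad-Hif1a and 1.17 ± 0.17 (edgeR adjusted p of 0.00489) with Ad-Hif2a. Tlr7, an endosomal receptor of single-stranded RNA that is also expressed by macrophages, had log2 fold changes of -2.06 ± 0.32 (edgeR adjusted p of 0.0075) and -2.21 ± 0.32 (edgeR adjusted p of 0.00478), and Irf5, a factor of myeloid cells, of -0.91 ± 0.22 (edgeR adjusted p of 0.039) and -1.07 ± 0.22 (edgeR adjusted p of 0.0179). Without Ad-C replicate 1, of these only Tlr7 with Ad-Hif2a passed. Among 67 tested genes of the further interferon-induced list, 6 rose and 3 fell with Ad-Hif1a, near the shares of all genes, and 11 rose and 3 fell with Ad-Hif2a. With 1 library left out the counts ran from 2 to 14 risen and 0 to 14 fallen with Ad-Hif1a, both highest without Ad-Hif2a replicate 3, the fit that called 36.4% of all genes, and from 3 to 17 risen and 1 to 6 fallen with Ad-Hif2a. Ccl5, a chemokine, stood at 147, 117 and 104 CPM in the Ad-Hif1a libraries and 139.5, 62.0 and 187 CPM in the Ad-Hif2a libraries, against 18.4, 15.6 and 15.6 CPM in the Ad-C libraries. Serping1, the inhibitor of complement C1, rose by 1.77 ± 0.15 (edgeR adjusted p of 0.000724) and 1.99 ± 0.15 (edgeR adjusted p of 0.000387), and Ifitm1 by 1.84 ± 0.27 (edgeR adjusted p of 0.00602) and 2.34 ± 0.27 (edgeR adjusted p of 0.0019) as log2 fold changes.

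MHC class I presentation, which interferon also drives, was higher in summed level in every vector library, with the 12 genes listed summing to 7210 to 8107 CPM in Ad-Hif1a and 6443 to 9700 CPM in Ad-Hif2a, against 3070 to 3326 CPM in Ad-C. Of these, 6 rose with Ad-Hif1a and 8 with Ad-Hif2a, and 0 fell in either. H2-Q4 had 309, 279 and 294 CPM with Ad-Hif1a and 277, 246 and 239 CPM with Ad-Hif2a, against 73.9, 70.9 and 80.8 CPM with Ad-C. Its log2 fold change was 1.97 ± 0.14 (edgeR adjusted p of 0.000384) with Ad-Hif1a and 1.75 ± 0.14 (edgeR adjusted p of 0.00043) with Ad-Hif2a, and that of B2m, the light chain of class I, 1.02 ± 0.20 (edgeR adjusted p of 0.0174) and 1.28 ± 0.20 (edgeR adjusted p of 0.00583). H2-D1 and H2-T23 rose with both vectors as well. B2m was lost in both comparisons without Ad-C replicate 1 or 3, and with Ad-Hif1a also without Ad-Hif1a replicate 1 or 2, at adjusted p of 0.0588 to 0.14, and H2-T23 with Ad-Hif2a without Ad-C replicate 1, at 0.0512. With 1 library left out, 3 to 11 rose with Ad-Hif1a (11 without Ad-Hif2a replicate 3) and 2 to 9 with Ad-Hif2a (2 without Ad-C replicate 1). Class I genes are near copies of each other, and reads may be shared between them. None of these 12 stood over 2 times as high in Ad-Hif2a replicate 1 as in both other libraries of its group.

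Other cell types were followed by their markers. Macrophages, which respond strongly to interferon, had 9 of 12 markers fall with Ad-Hif1a and 9 with Ad-Hif2a, and 0 rise (5 to 11 and 6 to 10 with 1 library left out). The 12 summed to 1498 to 1665 CPM in Ad-Hif1a and 1552 to 1836 CPM in Ad-Hif2a, against 3642 to 3885 CPM in Ad-C, with none at 0. In Ad-Hif2a replicate 1, the library where the interferon-stimulated genes stood highest, 2 of the 12 (Adgre1 and Fcgr3) were the highest and 5 (C1qa, C1qb, C1qc, Cd68 and Csf1r) the lowest of the Ad-Hif2a libraries. Their sum was 1552 CPM there, against 1836 and 1555 CPM in replicates 2 and 3. The 3 markers of plasmacytoid dendritic cells summed to at most 0.311 CPM in Ad-Hif1a and 0.728 CPM in Ad-Hif2a, against 0 CPM in Ad-C. Of 6 lymphocyte and NK cell markers, Cd3e, Cd3d, Nkg7 and Ncr1 had no count in any library, and the sum was at most 0.118 CPM. The part of the fall in macrophage transcripts in the lower levels of Cmpk2, Cxcl10 and like genes was not tested.

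Outside all these lists, 8 genes followed the mean log2 CPM of the 41 most closely over the 9 libraries, with Pearson correlations of 0.911 to 0.953. They were Cyp2j6, Iigp1c, Tcn2, Ndufb6, 9130221H12Rik, Tmem140, Gm4841 and Mocs2. Gm4841 stood at 5.38, 4.89 and 5.59 CPM in Ad-Hif1a and 17.2, 3.37 and 12.1 CPM in Ad-Hif2a, against 5.3, 5.1 and 4.49 CPM in Ad-C. The libraries share groups and depth, so these correlations describe a pattern and were not tested.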

How the data were processed

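Total RNA of the 9 libraries was prepared with the CORALL RNA-seq V2 kit. The submitters' processing notes name the build GRCm39 and the tools Salmon, STAR, fastp and bcl2fastq 2.20.0.422, and what each tool did is not given in the sources used here. The deposited values are raw read counts per gene symbol, whole numbers that were not normalized by the authors. The software used here was edgeR 4.0.16 in R 4.3.3, beside statmod 1.5.0 and limma 3.58.1.

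Genes passing filterByExpr entered, after TMM scaling, a robust quasi-likelihood fit in edgeR of all 9 libraries with terms for group and replicate number, since the study names a paired test. Adjustment of p-values after Benjamini and Hochberg ran across all 14413 genes, and calls needed a value under 0.05. A prior count of 2 went into log2 CPM. Alternatives were no replicate block, DESeq2 1.42.0, other scaling factors and filters, the 6 libraries compared alone and each library left out in turn. A fit lacking both libraries of low mitochondrial share (replicate 1 of Ad-Hif1a, replicate 3 of Ad-Hif2a) was chosen after seeing the data.

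The 41 genes and the other lists were chosen with earlier results of these data known. Values in every library are given for genes past the threshold, for the 2 genes of each role with the highest mean CPM, and for the 8 highest of those in which a vector library was over 2 times or under 0.5 times both others of its group. From the other lists, up to 4 genes past the threshold are named by lowest adjusted p. Transcript lengths were those of the longest transcript of a symbol in GENCODE M21 and matched 94.6% of the genes tested. Results for some listed genes are not reported here.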

Additional observations from a re-analysis of the deposited data

How the results depend on the processing

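No composition factor or filter on low counts changed the number of interferon-stimulated genes called by over 1.5 times. With Ad-Hif1a, 2 rose and 0 fell with all libraries; the count was 4 risen and 5 fallen with DESeq2, 9 risen and 11 fallen with the 6 libraries compared alone (33.5% of all genes were called), and 6 risen without both libraries of low mitochondrial share (27.6%), against 11.3% of all genes with all libraries. With Ad-Hif2a, 6 rose and 0 fell (15.6% of all genes were called), and DESeq2 called 10 risen (20.6%). With each library left out in turn, 1 to 7 rose and 0 to 4 fell with Ad-Hif1a, and 1 to 14 rose and 0 to 4 fell with Ad-Hif2a. The share of all genes called by these fits moved as well, from 2.99 to 36.4% with Ad-Hif1a and from 4.67 to 22.6% with Ad-Hif2a. No interferon-stimulated gene was called between Ad-Hif2a and Ad-Hif1a under any of the 18 alternatives. This comparison called few genes of any kind, at most 80 of all genes under these alternatives. Of 360 values of single genes under these alternatives, 296 kept their direction and side of the threshold, 30 lost and 33 gained significance, and 1 reversed: Cmpk2 in Ad-Hif2a against Ad-Hif1a, at -0.0284 without Ad-Hif2a replicate 1 (-0.0284 to 1.6412 with each library left out, against 1.08).

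Without the replicate block, 2 genes fell with Ad-Hif1a (Cmpk2 and Mx1) beside the 2 that rose, and 8 rose with Ad-Hif2a. These were 9.76% and 19.5% of the interferon-stimulated genes, below the 16.5% and 24% of all genes that this fit called. Pairing by replicate number was not seen. Deviations of same-numbered libraries from their group means had correlations of -0.57 to 0.10, against -0.57 to 0.61 for other numbers. A library correlated best with its own number in another group in 7 of 18 cases. This check cannot exclude pairing, because deviations within a group of 3 libraries depend on each other. The cause of the changes in the interferon-stimulated genes was not tested. With 3 libraries per group, the spread of the vector groups limits what can be called.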
